A study of Mus musculus with 3 samples.

Results

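Complement is described here through 9 genes: the 3 chains of the recognition molecule C1q (C1qa, C1qb, C1qc), the components C3, C4b, Cfb and Cfp, and the receptors for the anaphylatoxins, C3ar1 and C5ar1. They were chosen by name and are 9 of the 32886 genes in the deposited table. Their levels were read in 20266 immune cells of the healthy mouse kidney, which the authors had grouped into 23 clusters, and in 3 kidney compartments, namely cortex, inner medulla (IM) and outer medulla (OM).

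The mice were wild-type (wt), untouched C57BL/6J males of 10 weeks, housed at facilities in Aachen, Bonn and Hamburg. Kidneys were flushed with PBS, separated into cortex, OM and IM and digested, and live CD45+ cells were sorted and run on the 10x Genomics platform, with an earlier kit version in Aachen than in Bonn and Hamburg. Each of the 9 combinations of compartment and facility was treated as 1 library, so every compartment had n = 3 facilities. Cell names of each Aachen compartment carried 2 barcode suffixes, and these cells were pooled. The sources used here do not say how many animals went into a library. Compartments were compared within facilities, so p-values rest on how far the compartment differences varied from facility to facility. That variation mixes animals, kits and handling. All groups shared the genotype, the sex and the CD45 gate, so tubule and liver cells, known sources of C3 and other components, were not sorted for.

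Complement is a cascade of plasma proteins. C1q binds antibody complexes and dying cells and starts the classical pathway, in which C4 and C2 build an enzyme that cuts C3. Factor B (Cfb) builds the corresponding enzyme of the alternative pathway, and properdin (Cfp) stabilises it. Cutting C3 and C5 releases the anaphylatoxins C3a and C5a, which act on myeloid cells through C3ar1 and C5ar1. The liver makes most circulating components, whereas C1q comes mainly from macrophages and related myeloid cells.

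The libraries held 621 to 3677 cells each, with medians of 744 to 1270 UMIs (unique molecular identifiers, counts of captured transcripts) per cell in Aachen and 2802 to 3505 in Bonn and Hamburg. Resident macrophages (Macrophage_1, Macrophage_2, Macrophage_3 and Isg+_Macrophage) numbered 5367, and 8 macrophage markers that exclude C1q made up 79.9 to 235 of every 10000 UMIs in them, against 2.04 to 19.9 in T and B cells. Hamburg values were not whole numbers (0.118% of nonzero values were whole), and the step behind this was not given in the sources used here. Any pair of libraries shared at most 0.723% of barcodes of the smaller library. The Bonn cortex library stood apart in its macrophages, with 5.89 B cell marker UMIs per 10000 against 0.593 to 2.16 in the other 8 libraries. Macrophages of the Bonn IM library held 542 UMIs of the tubule gene Kap, against 0.6 to 15 in the other 8, and the part of such transcripts in the complement values was not tested. Of 11043 genes with at least 50 UMIs in both Bonn and Hamburg, 952 were at 0 in every Aachen cell, and Cfb was among them. Aachen zeros for Cfb were therefore not read as low expression. They did enter the fits, the shares of cells and the correlations across clusters given for Cfb.

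The 3 C1q genes lie together on chromosome 4, within 18.7 kb on the minus strand (GRCm38, GENCODE vM21): C1qb at chr4:136880129-136886187, C1qc at chr4:136889804-136893065 and C1qa at chr4:136895917-136898803. Cfb (chr17:34856374-34862518) and C2 (chr17:34862604-34898265) are neighbours with 85 bases between them, C4b lies at chr17:34728380-34743882 and C3 at chr17:57203970-57228136. C5ar1 (chr7:16246743-16259540, the GENCODE span, which reaches past the RefSeq start used for the promoter) has the second C5a receptor gene, C5ar2, 2.6 kb beside it, C3ar1 lies at chr6:122847138-122856161 and Cfp at chrX:20925454-20931555. All are on the minus strand. The GENCODE span of C1qc also reaches past its RefSeq start, so part of its promoter window lies within that span.

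RefSeq promoter sequences (GRCm38.p6) were matched for 6 of the 9 genes, namely C1qb, C1qc, C3, C3ar1, C5ar1 and Cfp. The 250 bases before the start are shown for C1qb and C1qc, whose levels went together across clusters, for C5ar1, the gene that changed between compartments, and for C3, which was carried by few cells. Capitals mark matches, on either strand, to GAGGAA (the PU.1 box), TGCTGA (a MAF core), GAAANNGAA (an interferon-stimulated response core), TTCNNNGAA (a GAS element) and TTGCNNAA (a C/EBP site), and no matches overlapped in these 4 windows.
C1qb, chr4:136886201-136886450, minus strand: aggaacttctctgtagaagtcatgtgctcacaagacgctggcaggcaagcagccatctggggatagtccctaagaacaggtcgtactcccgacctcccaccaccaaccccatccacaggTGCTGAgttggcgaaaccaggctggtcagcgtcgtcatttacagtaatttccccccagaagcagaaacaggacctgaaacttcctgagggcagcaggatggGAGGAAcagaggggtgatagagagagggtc
C1qc, chr4:136892915-136893164, minus strand: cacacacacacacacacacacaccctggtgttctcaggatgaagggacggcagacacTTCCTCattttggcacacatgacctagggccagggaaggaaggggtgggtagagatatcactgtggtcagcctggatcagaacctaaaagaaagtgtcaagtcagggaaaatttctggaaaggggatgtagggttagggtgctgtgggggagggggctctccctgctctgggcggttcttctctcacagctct
C5ar1, chr7:16259339-16259588, minus strand: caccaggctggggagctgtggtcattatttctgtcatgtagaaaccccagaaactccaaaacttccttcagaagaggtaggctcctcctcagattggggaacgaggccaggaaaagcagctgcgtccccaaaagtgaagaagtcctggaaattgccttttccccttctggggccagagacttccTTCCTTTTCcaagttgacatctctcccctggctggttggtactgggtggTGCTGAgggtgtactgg
C3, chr17:57228137-57228386, minus strand: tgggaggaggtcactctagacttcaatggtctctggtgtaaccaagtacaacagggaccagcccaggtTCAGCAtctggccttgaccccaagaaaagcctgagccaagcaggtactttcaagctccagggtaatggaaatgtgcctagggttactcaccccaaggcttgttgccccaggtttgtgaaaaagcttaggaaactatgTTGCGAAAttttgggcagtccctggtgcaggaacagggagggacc

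C1qb and C1qc each held 1 PU.1 box, 30 bases before the start in C1qb and 193 in C1qc on the opposite strand. C1qb also held a MAF core, as did C5ar1 and C3, and C5ar1 held the interferon-stimulated core 66 bases before its start. C3 held the C/EBP letters 45 bases before its start. Such matches are common: of the 32851 promoters in the table, 23.3% held the PU.1 box, 16.1% the MAF core, 7.1% the interferon-stimulated core, 7.0% the GAS letters and 9.6% the C/EBP letters. The letters are a description of these windows and not evidence of binding.

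C1q dominated the complement transcripts of these cells. Levels are given in CPM, a gene's UMIs per 1000000 UMIs of the cells concerned. C1qb reached 7595 ± 275 CPM in Macrophage_2, 7325 ± 468 in Macrophage_3, 6403 ± 530 in Macrophage_1 and 6186 ± 518 in Isg+_Macrophage (mean ± SD over facilities, n = 3). Neighbours in this order overlapped over facilities, although Macrophage_2 (7281 to 7793) lay above Macrophage_1 (5998 to 7004) throughout. Malat+_Macrophage lay below them at 3724 ± 1117, with no overlap, and every other cluster lay lower still. Levels across clusters are given without a test, since the clusters had been made from the same counts.

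The same 4 clusters led for C1qa and C1qc, with Malat+_Macrophage below them. C1qa lay at 6626 ± 1100 in Macrophage_2 and 5485 ± 793 in Macrophage_1, and C1qc at 5411 ± 492 in Macrophage_3 and 4345 ± 760 in Macrophage_1. After thinning each cell to 500 UMIs, a C1qb UMI was found in 95.2% of resident macrophages in Aachen, 95.9% in Bonn and 92.4% in Hamburg. In T and B cells, which are not known to make C1q, the shares were 8.06%, 0.732% and 1.12%. These shares were taken as the background of the assay, and they were highest in Aachen. Of the Aachen cells, 222 macrophages and 349 T and B cells under 500 UMIs were left out of these shares.

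**Figure D1:**
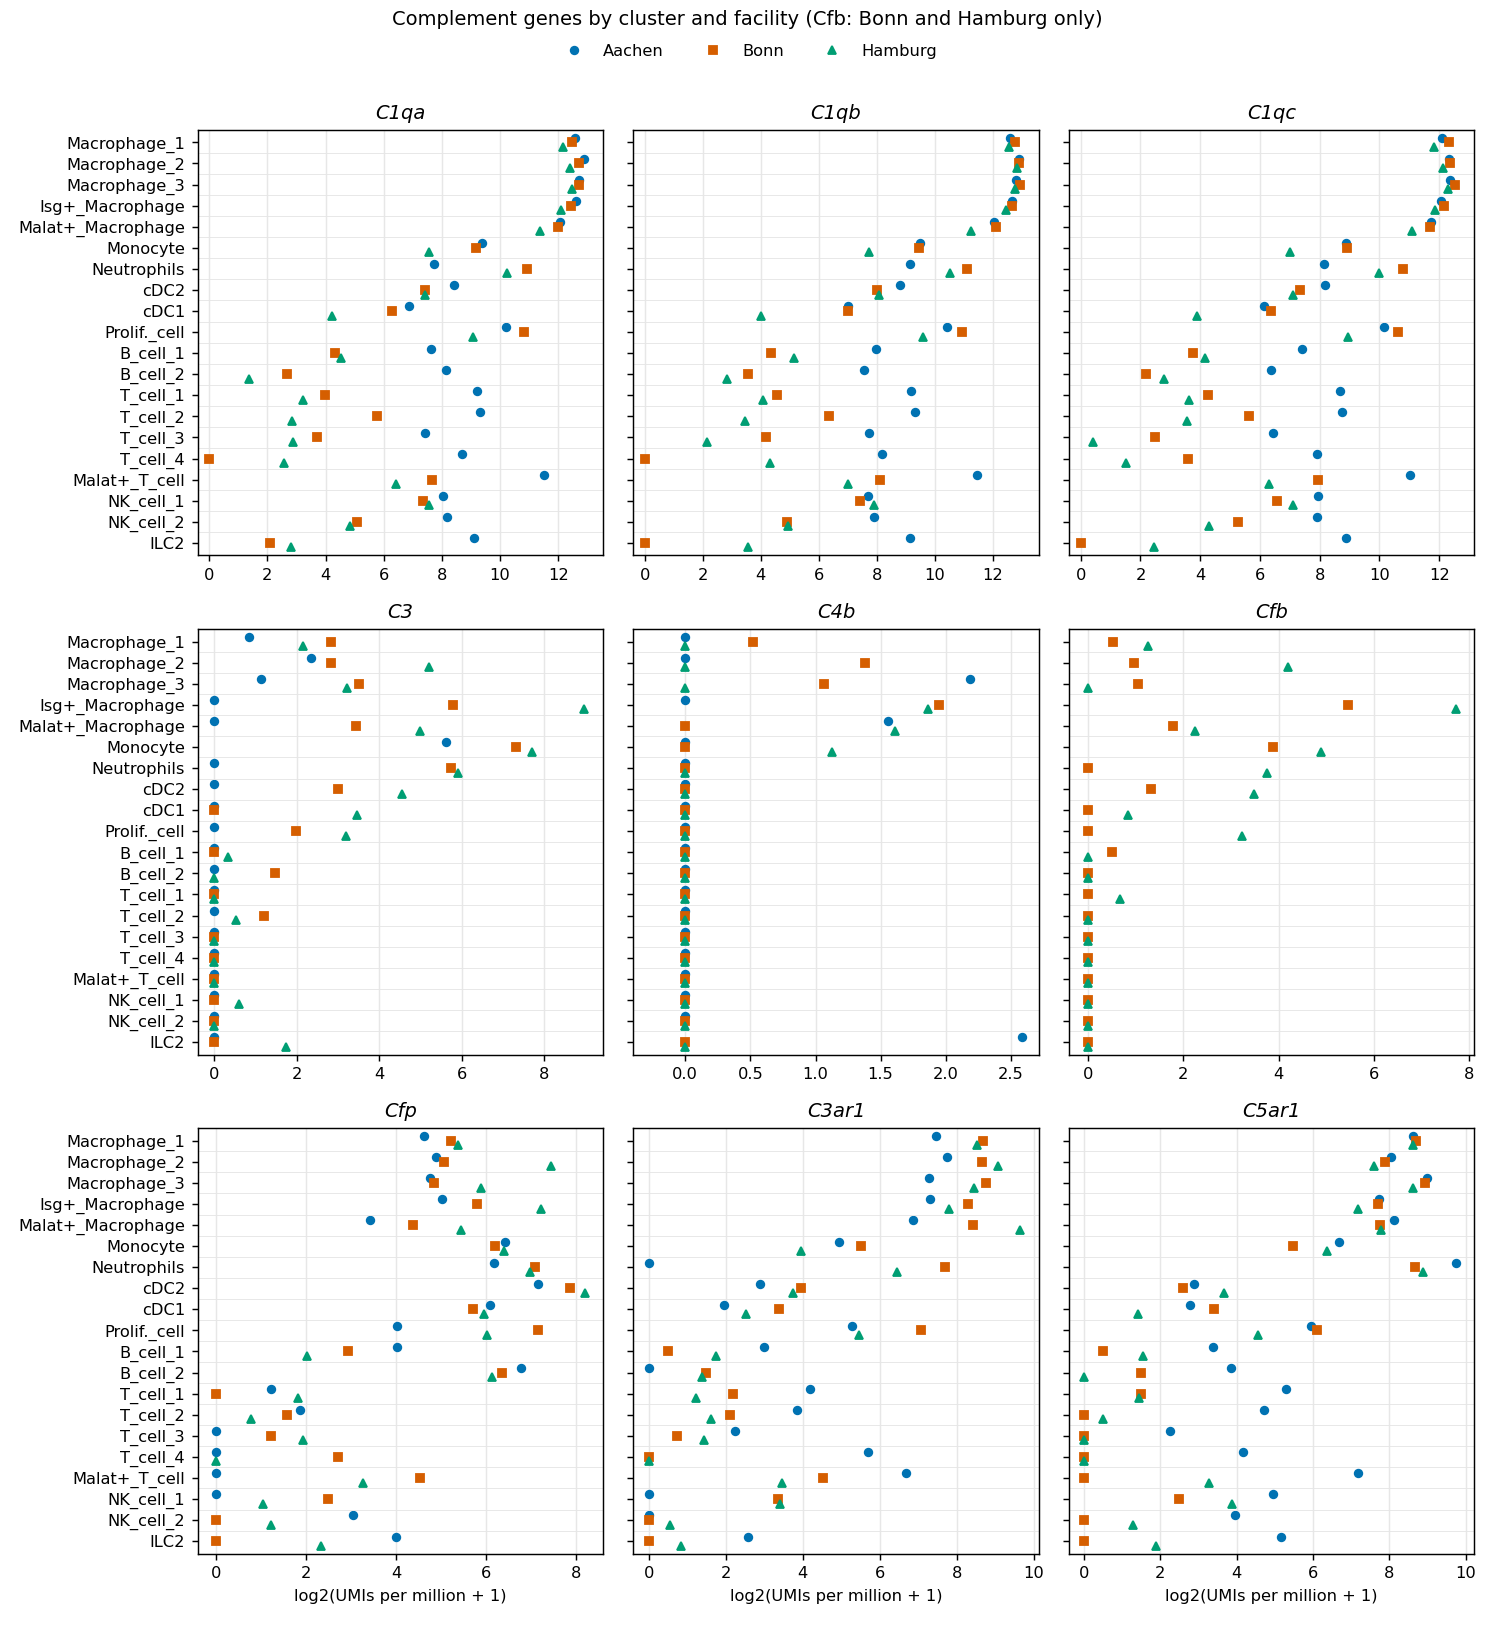
Level of each gene in the 20 clusters with at least 20 cells at every facility, as log2(CPM + 1), with 1 point per facility. Cfb is drawn for Bonn and Hamburg only. The 3 C1q genes were highest in the macrophage clusters, C5ar1 was highest in Neutrophils, Macrophage_3 and Macrophage_1, and the Aachen points of C1q lay to the right of the others in T cells.

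C3, the component on which all pathways converge, was highest in 2 clusters. In Monocyte it lay at 47.9 CPM in Aachen, 158 in Bonn and 208 in Hamburg, and 8 of 89 Aachen, 133 of 300 Bonn and 144 of 325 Hamburg monocytes held a C3 UMI. In Isg+_Macrophage, named by the authors for interferon-stimulated genes, it lay at 0 in Aachen, where 0 UMIs allow up to 23.4 CPM, at 54.2 in Bonn and at 501 in Hamburg. The Hamburg value came from 28 of 109 cells, and 5 of them held 57.4% of its C3 UMIs. In cells thinned to 500 UMIs, C3 was found in 1.18% of Aachen, 9.33% of Bonn and 8.92% of Hamburg monocytes. No thinned T or B cell held it, which allows shares of up to 0.132%, 0.0879% and 0.0842%. Neutrophils held 0 to 59.1, and the level was 0.784 to 6.13 in Macrophage_1 and 4.06 to 36.0 in Macrophage_2.

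Cfb lay at 42.8 CPM in Bonn and 210 in Hamburg in Isg+_Macrophage, and at 13.7 and 28.7 in Monocyte. In Isg+_Macrophage, 13 of the 14 Hamburg cells and all 3 Bonn cells with a Cfb UMI also held a C3 UMI. In monocytes, 15 of 19 Hamburg cells and 4 of 7 Bonn cells with Cfb held C3, and in Macrophage_2 1 of 4 and 1 of 3. Cells of greater depth hold more of any gene, and the part of depth in this overlap was not tested.

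C4b was nearly absent, with 18 UMIs among all 20266 cells, of which 5 were in Aachen, 9 in Bonn and 3.9 in Hamburg. Its near copy C4a can share its reads, so even these few are uncertain. C4b failed the filter on low counts in every class of cells.

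Cfp differed from the other components in that a cluster of dendritic cells led. It lay at 141 CPM in Aachen, 233 in Bonn and 289 in Hamburg in cDC2 (conventional dendritic cells of the second type). Among the 20 clusters with at least 20 cells at every facility, Neutrophils came next, at 110 ± 34.2 (SD, n = 3) and up to 135, just without overlap. The plasmacytoid dendritic cells (pDC) were too few for this ranking and overlapped cDC2. They held 224 in Bonn and 247 in Hamburg, with 48 and 42 cells, and 320 among 9 Aachen cells. B_cell_2 (85.9 ± 20.1), Monocyte (79.9 ± 6.41) and Macrophage_2 (78.1 ± 82.5) followed and overlapped. The spread in Macrophage_2 was that between Hamburg, at 173, and the other facilities, at 28.4 and 32.6.

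C5ar1, the receptor through which C5a draws and activates myeloid cells, lay at 575 ± 242 CPM in Neutrophils, 464 ± 61.8 in Macrophage_3 and 401 ± 14.9 in Macrophage_1. These clusters overlapped over facilities and are not ranked. Neutrophils ranged from 404 to 852 CPM, and Aachen had only 25 of them. Malat+_Macrophage (237 ± 35.6), Macrophage_2 (231 ± 36.0) and Isg+_Macrophage (187 ± 36.8) lay below Neutrophils, Macrophage_3 and Macrophage_1 without overlap. Monocyte lay lower again at 75.6 ± 29.7. The order of the macrophage clusters thus differed from that of C1q, with Macrophage_2 among the lowest. In thinned cells, 0.112% of Hamburg and none of 3413 Bonn T and B cells held C5ar1, the latter allowing a share of up to 0.0879%, against 14.3% and 16.3% of resident macrophages in the same random draw. The background was highest in Aachen, where T and B cells held 7.90 CPM of C5ar1 in cortex, 22.9 in OM and 29.0 in IM. Its part in the macrophage values was not tested.

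C3ar1 was spread more evenly over the macrophages. Macrophage_2 held 384 ± 159 CPM, Macrophage_1 318 ± 126, Macrophage_3 311 ± 142 and Isg+_Macrophage 229 ± 77.6. All overlapped, since Aachen lay at 154 to 215 and Bonn and Hamburg at 221 to 532 in these clusters. The highest single value was 798 in Hamburg Malat+_Macrophage, against 115 in Aachen. Monocytes held little of it, at 14.5 to 44.6.

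The compartments of the kidney were compared within resident macrophages, on counts summed per library, with edgeR's quasi-likelihood test, facility as block and Benjamini-Hochberg adjustment over all genes. Medulla means the average of OM and IM. Of the 9 genes, 8 passed the filter on low counts, all but C4b. C5ar1 alone changed, and it was higher in the medulla, whereas the C1q chains and C3ar1 stayed within 0.16 of 0 on the log2 scale. Across all genes 108 of 8687 were called in this comparison, or 1.24%, and 1 of 8 among the complement genes. The median log2 fold change was -0.001 over the 8 genes and 0.006 over all genes.

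C5ar1 in resident macrophages lay at 275 CPM in Aachen cortex, 449.8 in its OM and 293 in its IM. In Bonn the values were 237, 459 and 416, and in Hamburg 219, 368 and 339. Every medullary library was above the cortex of its own facility and above all 3 cortical libraries, with ratios of 1.64 to 1.94 for the OM and 1.07 to 1.76 for the IM. The fitted log2 fold change, medulla against cortex, was 0.68 ± 0.15 (SE, edgeR adjusted p = 0.0361). It was 0.81 ± 0.16 for the OM (adjusted p = 0.0359), where 0.852% of genes were called, and 0.55 ± 0.17 for the IM (adjusted p = 0.277), where 0.196% were. OM and IM differed by 0.26 ± 0.16 (adjusted p = 1.0), a comparison with 0.0% of genes called by either edgeR or DESeq2, although 267 had an unadjusted p under 0.05.

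The call for the medulla was near its threshold. It was lost without Bonn (log2 fold change 0.55, adjusted p = 0.183), without Hamburg (0.67, 0.426) and without the Bonn cortex library (0.55, 0.283), and it was kept without Aachen (0.78, 0.00363). The call for the OM was lost without Hamburg (0.85, 0.398) and without the Bonn cortex library (0.68, 0.135). For the IM, C5ar1 was called without Aachen (0.76, 0.0114), whose IM lay closest to its cortex.

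The makeup of the macrophages also differed between compartments, though not in the same way at each facility. Its part in the C5ar1 change was not tested. Macrophage_3, rich in C5ar1, made up 0% to 7.05% of cortical resident macrophages, 23.0% to 44.7% of OM and 1.17% to 43.1% of IM ones. Macrophage_2, lower in C5ar1, made up 35.5%, 18.6% and 60.6% in cortex, OM and IM of Aachen. Bonn had 83.3%, 32.1% and 10.4%, and Hamburg 32.8%, 18.6% and 16.6%. Macrophage_1 made up 4.45% in Bonn cortex and 17.9% to 59.3% elsewhere. Without Macrophage_3 the log2 fold change of C5ar1 was 0.62 (adjusted p = 0.145), and for the OM alone it was 0.70 (adjusted p = 0.218). That fit left the shifts between Macrophage_1 and Macrophage_2 in place. Within Macrophage_1 C5ar1 averaged 294 ± 12.9 CPM in cortical, 486 ± 44.2 in OM and 394 ± 33.9 in IM libraries, and the 3 cortical libraries lay below all 6 medullary ones. Within Macrophage_2, where the level was lower throughout, the cortex held 203 ± 62.0, the OM 272 ± 41.0 and the IM 246 ± 26.5, and each medullary library was above its own cortex.

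Neither cluster reached the threshold alone for medulla against cortex. The log2 fold change of C5ar1 was 0.57 ± 0.16 in Macrophage_1 (edgeR adjusted p = 0.118, 0.516% of genes called) and 0.37 ± 0.15 in Macrophage_2 (adjusted p = 0.717, 0.02% called). It was the single member at an unadjusted p under 0.05 in each, with 6 members tested, and DESeq2 called none. For the OM against the cortex, C5ar1 in Macrophage_1 had 0.70 ± 0.18 and missed the threshold with edgeR (adjusted p = 0.0758) but not with DESeq2 (adjusted p = 0.0374). In Macrophage_3 only 1 facility had 20 or more cortical cells, and in it C5ar1 lay at 527 CPM in cortex, 559 in OM and 467 in IM. Neutrophil markers, for another cluster high in C5ar1, made up 0.0924 to 0.278 of 10000 UMIs in cortical, 0.128 to 0.395 in OM and 0.206 to 0.280 in IM macrophages, against 337 to 720 in Neutrophils.

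**Figure D2:**
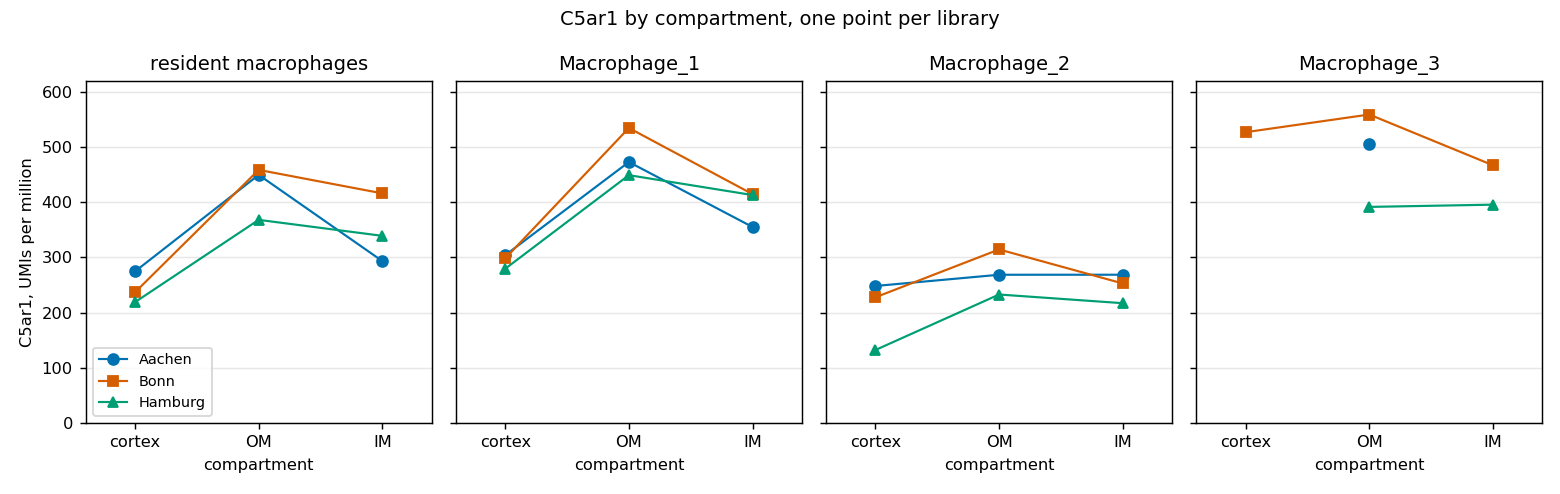
C5ar1 in CPM by compartment for all resident macrophages and for 3 of their clusters, with 1 point per library and lines joining the libraries of a facility; Macrophage_3 is drawn only where a library had at least 20 of its cells. In resident macrophages the cortical libraries lay at 219 to 275 and the OM libraries at 368 to 459.

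The shares of cells pointed the same way but could not pass a corrected test. With each macrophage thinned to 500 UMIs in a separate random draw, C5ar1 was found in 9.71%, 11.7% and 8.19% of cortical cells (Aachen, Bonn and Hamburg), 19.2%, 17.3% and 17.4% of OM cells and 13.4%, 14.8% and 15.8% of IM cells. Medulla exceeded cortex by 6.44 percentage points in the mean, 16.3% against 9.86%. Of the 27 ways to name 1 library per facility as cortex, the true one gave the largest difference, for an exact two-sided permutation p of 0.037, the smallest this design allows, and an adjusted p of 0.222 over 6 genes. In cells as deposited the difference was 10.4 points, with an exact p of 0.0741. In thinned cells none of the other 5 genes had an exact p under 0.185.

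C1qb in resident macrophages lay at 6770, 6889 and 7302 CPM in cortex, OM and IM of Aachen. Bonn had 7646, 8098 and 7193, and Hamburg 5984, 6758 and 6128. For C1qb the groups overlapped and no compartment was highest at every facility. In the same order, C1qc lay at 4408, 4946 and 4833 CPM in Aachen. Bonn had 5235, 5893 and 5323, and Hamburg 3547, 4311 and 3868. Its OM value was the highest at each facility and all 6 medullary libraries lay above their own cortex, but the fitted difference missed the threshold. Log2 fold changes, medulla against cortex, were -0.02 ± 0.10 for C1qa, 0.06 ± 0.10 for C1qb and 0.16 ± 0.10 for C1qc (adjusted p 0.687 to 0.997).

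The other tested components and C3ar1 gave wider errors. Cfp lay at 39.6, 24.0 and 16.2 CPM in cortex, OM and IM of Aachen. Bonn had 32.2, 17.6 and 38.5, and Hamburg 105, 65.0 and 96.3. Its OM value was below the cortex at each facility, at 0.545 to 0.620 of it, with a log2 difference of -0.66 ± 0.24 that missed the threshold (adjusted p = 0.297). C3 had a log2 fold change of -0.17 ± 0.40, Cfb of -0.13 ± 0.50 and C3ar1 of 0.02 ± 0.14, none near the threshold. Hamburg held most C3 in resident macrophages, at 89.7 CPM in its cortex, 33.4 in its OM and 82.0 in its IM, against 0 to 17.6 in the other 6 libraries, and without Hamburg the C3 estimate turned to 1.38 (adjusted p = 0.819). C3ar1 was lower in the medulla in Aachen, at 160 and 190 against 223, and higher in Bonn and Hamburg.

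**Figure D3:**
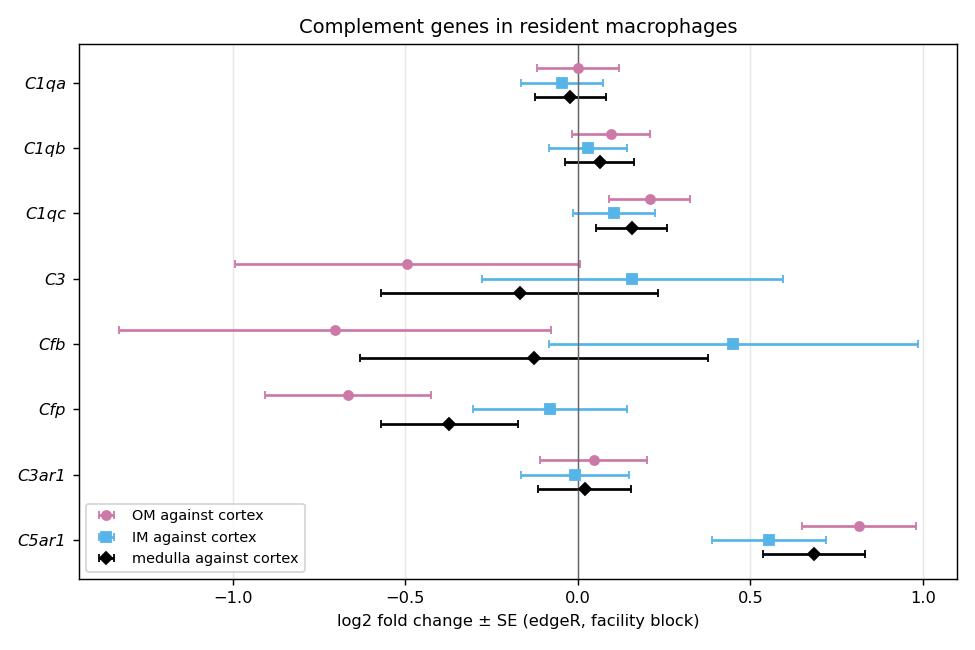
Log2 fold changes in resident macrophages for the 8 tested genes, as points with their SE, for OM, IM and medulla against cortex. C5ar1 lay to the right of 0 in all 3 comparisons, at 0.55 to 0.81, and C1qa, C1qb and C3ar1 within 0.10 of it.

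C1q is assembled from equal numbers of its 3 chains, so the makeup of the C1q transcripts was also compared. Counts here are of transcript ends and do not scale with transcript length. C1qa made up 39.1%, 34.8% and 32.7% of C1q UMIs in cortical macrophages of Aachen, Bonn and Hamburg. The OM shares were 35.1%, 32.9% and 31.9%, and the IM shares 37.4%, 31.9% and 32.3%. C1qc moved the other way, with cortical shares of 24.0%, 26.5% and 25.1%, OM shares of 27.1%, 28.3% and 26.5%, and IM shares of 24.95%, 29.0% and 26.2%. In all 6 medullary libraries the C1qa share was below, and the C1qc share above, that of the cortex of the same facility. The mean differences were -1.94 and 1.81 percentage points, each with an exact two-sided permutation p of 0.037, the smallest possible, and an adjusted p of 0.0556 over 3 chains, so neither passed. The C1qb share differed by 0.13 points (exact permutation p = 0.593). The 3 shares are parts of the same whole, so the C1qa and C1qc differences mirror each other and are not independent results.

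Among monocytes, C1q was an order lower and varied between facilities. Medulla against cortex, none of 8 tested genes was called by edgeR or DESeq2, 2 had an unadjusted p under 0.05, and 0.332% of all genes were called. Against the cortex, C1qb was lower in the IM by a log2 fold change of -0.76 ± 0.19 (edgeR adjusted p = 0.0290, 0.249% of genes called). Its level was 708, 1114 and 465 CPM in cortex, OM and IM of Aachen. Bonn had 802, 713 and 475, and Hamburg 239, 249.8 and 124. IM monocytes thus held the least C1qb at each facility. OM against IM, C1qb (0.84 ± 0.19, adjusted p = 0.0280) and C1qc (0.91 ± 0.21, adjusted p = 0.0304) were higher in the OM, with 0.133% of genes called. DESeq2 called none of these, and leaving out any facility lost all 3 calls (adjusted p 0.0719 to 1.0). Monocytes numbered 25 to 185 per library. Macrophage markers made up 32.0 to 45.7 of 10000 UMIs in cortical, 35.7 to 63.6 in OM and 33.6 to 60.3 in IM monocytes, and their part in the C1q values was not tested.

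In cDC2, T cells and B cells no member was called, medulla against cortex. In cDC2, with 4 members tested and 0.304% of genes called, C1qa had a log2 fold change of -1.12 ± 0.38 (edgeR adjusted p = 0.537) and was the only member at an unadjusted p under 0.05. Its OM value in Bonn was 0 of 40 cells' UMIs, a count that allows up to 9.77 CPM, while the Bonn cortex held 317. Cfp, in which these cells led the ranked clusters, had -0.25 ± 0.18 (edgeR adjusted p = 0.995). In T cells, with 5 members tested and 0.0335% of genes called, C1qa, C1qb and C1qc had estimates of 0.73 to 0.76 and unadjusted p under 0.05. In B cells none of 4 members had such a p and 0.0898% of genes were called. DESeq2 called no member in these 3 classes.

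The C1q of lymphocytes was that of Aachen for the most part. Summed over the 3 chains, T and B cells held 518, 1281 and 1509 CPM in cortex, OM and IM of Aachen. Bonn had 85.7, 35.4 and 71.5, and Hamburg 30.9, 71.0 and 35.4. Without Bonn all 3 chains were called in T cells (log2 fold changes 1.18 to 1.30, adjusted p 0.00820 to 0.0180). Resident macrophages of the same libraries held 14155 to 20853. Macrophage markers other than C1q made up 6.33, 21.0 and 13.1 of 10000 UMIs in T cells of Aachen cortex, OM and IM, against 0.393 to 1.23 in Bonn and Hamburg, and their part in the C1q values was not tested.

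**Figure D4:**
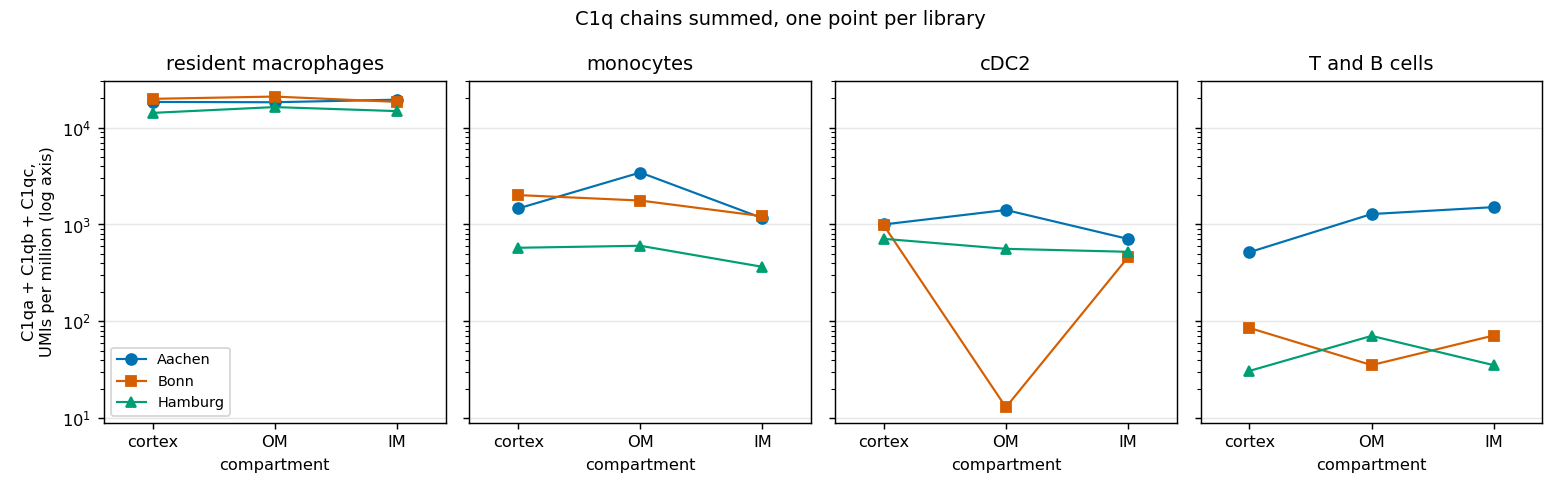
Summed C1qa, C1qb and C1qc in CPM (log axis) by compartment in 4 classes of cells, with 1 point per library and lines joining the libraries of a facility. Resident macrophages lay between 14155 and 20853, monocytes between 366 and 3435 and T and B cells between 30.9 and 1509, with Aachen highest in the last.

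Whether the medullary change differed between classes was tested as an interaction. No member differed between resident macrophages and cDC2 (0.0221% of genes called), B cells (0.129%) or T cells (0.02%), with 2, 0 and 0 members at an unadjusted p under 0.05. Against cDC2 the difference was 1.09 ± 0.48 for C1qa (edgeR adjusted p = 0.894). Against T cells it was -0.70 ± 0.36 for C1qa (adjusted p = 0.768). For C5ar1 against cDC2, where it was sparse, it was 1.72 ± 0.67 (adjusted p = 0.775). Against T cells and B cells, where C5ar1 was sparse too, its difference was 0.08 ± 0.80 and 0.002.

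Of 48 other complement genes, grouped by their place in the cascade, 11 passed the filter in resident macrophages, and 2 were called between medulla and cortex with a median log2 fold change of 0.03, beside 0.01 over all genes. Cd93, a surface lectin once proposed as a C1q receptor, was higher in the medulla (0.66 ± 0.13, edgeR adjusted p = 0.0268), and higher in the OM by 0.93 ± 0.15 (adjusted p = 0.0139). Its level was 64.6 ± 25.4 CPM in cortical, 123 ± 60.7 in OM and 82.9 ± 43.0 in IM libraries. Itgax, which forms complement receptor 4 with Itgb2 and also marks dendritic cells, was lower in the medulla (-1.46 ± 0.26, adjusted p = 0.0176), at 139.9 ± 64.5 in the cortex and 52.8 ± 21.5 in the IM. The dendritic cell markers of cDC2 made up 0.198 to 1.12 of 10000 UMIs in cortical, 0.329 to 0.797 in OM and 0.251 to 1.75 in IM macrophages, and their part in the result was not tested. Both calls were lost without Hamburg and without the Bonn cortex library (adjusted p 0.123 to 0.464), and that of Cd93 also without Bonn (adjusted p = 0.444). Without Macrophage_3 neither was called, with -1.09 for Itgax (adjusted p = 0.0872) and 0.47 for Cd93 (adjusted p = 0.194).

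Other receptors and regulators had estimates that missed the threshold. Calr and Itgb2 were the most abundant receptors, with log2 fold changes of 0.03 ± 0.13 and -0.22 ± 0.14. C5ar2, the C5a receptor that does not couple to G proteins and the neighbour of C5ar1, had 0.70 ± 0.20 (adjusted p = 0.134). Cr1l, the rodent membrane regulator also called Crry, had -0.12 ± 0.15. C2, the partner of C4 in the classical enzyme, lay at 12.4 CPM with 1.14 ± 0.34 (adjusted p = 0.162). Cd55, Serping1, Masp1, Cfd, C8g and C7 were at or below 7.59 and not tested. Resident macrophages thus held transcripts for C1q, for receptors and for regulators, and next to none for the terminal components.

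Across the 20 clusters, the genes most like each member were sought among 11403 genes, by Pearson's r of log2 CPM. C1qa, C1qb and C1qc were each other's closest (r = 0.995 to 0.998), followed by Ms4a7 for C1qa and C1qb (0.984 and 0.979) and Lilra5 for C1qc (0.979). C3ar1 went with Lilra5, Rab3il1 and Ms4a7 (0.969 to 0.978), and C5ar1 with Cd14, Clec5a and Pla2g7 (0.967 to 0.972). Cfp went with Spi1, which encodes PU.1, and with Ogfrl1 and Ifi30 (0.920 to 0.923). C3 went with Gm21188, Gm36161 and Ly6i (0.931 to 0.949), and Cfb with Ly6i, Gpr84 and C3 (0.869 to 0.897), of which C3 is a member. For C4b, with 18 UMIs, the closest were Zcchc14, Mlkl and C2 (0.822 to 0.855), which at this depth is no finding. The clusters share their libraries and were drawn from the same counts, so these values describe patterns and carry no p.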

How the data were processed

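Single-cell RNA sequencing of sorted CD45+ kidney cells was read from 1 deposited table of 20266 cells and 32886 genes, whose values are estimated counts: the authors' counts per gene and cell, whole in Aachen and Bonn but not in Hamburg. Per the labels, Cell Ranger, Seurat and mm10 were used, and the authors removed cells outside 200 to 4000 genes or above 20% mitochondrial reads. How doublets were treated was not given in the sources used here, and no doublet caller was run. Clusters, compartments and facilities were taken from the table's own columns.

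Counts were summed per library and class of cells (at least 20 cells), rounded, and filtered with filterByExpr. They were tested with edgeR 4.0.16 (quasi-likelihood, TMM, R 4.3.3), with facility as block because each facility gave all 3 compartments, and Benjamini-Hochberg adjustment over all genes at 0.05. The medulla is the mean of OM and IM. DESeq2 1.42.0, other scaling and filters, thinning to 500 UMIs, no block, and left-out facilities, libraries and clusters were the alternatives. Shares of cells and of C1q chains were compared by exact two-sided permutation within facilities. Levels are CPM of these sums. Intervals and limits of 0 (3 counts) cover counting error only.

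All 9 genes were entered in every comparison, genes that failed the filter were not tested, and values are printed for those the results turn on. Of the pathway list, genes called in resident macrophages and the 2 highest of each group are named, except 1 that is not reported here, and C5ar2 is given as the neighbour of C5ar1, chosen after its values were seen. Per member, the 3 genes with the highest correlation over clusters are named, among genes with at least 10 CPM in 1 cluster. Members and lists were chosen with earlier results of these data known. Scripts (pandas 2.3.3 and scipy 1.17.1 in Python 3.11.15) were tested on simulated data.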

Additional observations from a re-analysis of the deposited data

How the results depend on the processing

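The medullary C5ar1 estimate in resident macrophages kept its direction under all 14 alternatives (log2 fold change 0.55 to 0.78, edgeR or DESeq2 adjusted p 0.000375 to 1.0), but its call did not. Of the complement genes, 0 were called for medulla against cortex without the replicate block (C5ar1 adjusted p = 1.0), with Malat+_Macrophage (0.0579), after thinning (0.0932), without the Bonn cortex library and without Macrophage_3, and 0 to 1 with a facility left out. For OM against cortex, 0 were called without the block, without the Bonn cortex library, with Malat+_Macrophage and without Macrophage_3, and 0 to 1 with a facility left out. For IM against cortex, 1 was called without the Aachen IM library, and 0 to 1 with a facility left out. With no filter on low counts, 1 gene was called in cDC2, 2 in B cells and 3 in T cells, and 1 differed between classes. In T cells, 0 to 3 were called with a facility left out. The pathway list had 1 call with DESeq2, 5 with no filter, 0 without the block, 1 in thinned cells, 0 without the Bonn cortex library, 4 without the Aachen IM library, 1 with Malat+_Macrophage, 0 without Macrophage_3, and 0 to 5 with a facility left out. The cause was not tested.

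The monocyte calls for C1qb and C1qc were lost without the replicate block (adjusted p = 1.0 each), with DESeq2 and in thinned cells. The C1qb chain share turned to -0.14 points in thinned cells (-0.23 to 0.57 with a facility left out). The share of macrophages with C3 turned to 1.12 points in cells as deposited and 0.909 at 1000 UMIs (-0.597 to 0.147 with a facility left out), that of C4b to 0.0328 at 1000 UMIs (-0.186 to 0.0141), and that of C3ar1 to 1.29 at 1000 UMIs. Log2 fold changes in resident macrophages changed sign for C1qa without Bonn (-0.083 to 0.0024 over left-out facilities), C3 without Hamburg (-0.68 to 1.38) and in thinned cells (0.16), Cfb without Macrophage_3 (0.18), and C3ar1 without Bonn (-0.10), without Hamburg (-0.06) and without the Bonn cortex library (-0.11), and in T cells for C1qc without Aachen (-0.27 to 1.30). Medulla against cortex in Macrophage_3 was not run, since Bonn alone had 20 or more cortical cells. Depth limited C4b, with 18 UMIs in all. Cfb was at 0 in every Aachen cell, and the cause was not tested.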
